A study of Mus musculus with 4 samples.

Results

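Integrins and the adaptor proteins that tie them to the actin cytoskeleton were followed in the endothelium of lymphatic vessels, sorted from the lungs of newborn mice at postnatal day 0. The set was taken by gene symbol alone, as the 18 alpha and 8 beta integrin subunits and 19 adaptors (talins, kindlins, vinculin, Ilk, the Pinch proteins Lims1 and Lims2, parvins, paxillin, focal adhesion kinase Ptk2, zyxin, Bcar1 and tensins 1 to 3). All 45 genes have a row in the deposited count table, out of 24421 rows in all, and 37 passed the filter on low counts and were tested. The controls, Jun-Ctrl, carried Prox1-CreER;Junf/+;Rosa26-mTmG, with 1 of the Jun alleles floxed. CreER is a Cre recombinase that must be induced to act, here made in cells that express the lymphatic factor Prox1. The other group, Jun-cKO, carried Prox1-CreER;Junf/f;Rosa26-mTmG, with both Jun alleles floxed, so every animal had the Cre driver, the reporter and at least 1 floxed Jun allele. Cells negative for CD45 and positive for CD31 and GFP were sorted, with 3 to 5 mice pooled per group, and each group has 2 libraries (n = 2 throughout). The library whose title carries the word replicate is called the second. Nothing in the labels says that the libraries of a group came from separate animals, so the spread between these libraries may be technical. Each p-value of the main fit rests on that spread, mostly as shared over all genes (median of 48.1 degrees of freedom). A gene's own libraries add little to it, so very small p-values do not measure spread between animals.

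Integrins are paired receptors, each made of 1 alpha and 1 beta subunit, that bind matrix proteins outside the cell. Inside the cell talin and kindlin bind the beta tail and switch the receptor on, while vinculin, tensins, zyxin and the complex of Ilk, Pinch and parvin join it to actin. Paxillin, Bcar1 and focal adhesion kinase collect at the same sites and pass signals on. In lymphatic vessels the alpha9 and beta1 pair is known for its part in the growth of valve leaflets, through binding of fibronectin, and beta1 is known for sensing stretch together with the receptor Flt4.

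Library totals ran from 6483514 to 16037416 counts. Jun itself stood at 472 and 433 CPM (counts scaled to effective library size) in Jun-Ctrl and at 524 and 475 CPM in Jun-cKO. Jun counts thus showed no fall under that label (edgeR quasi-likelihood adjusted p = 0.354), and gene counts do not show whether the counted reads cover the floxed part of Jun. The libraries under that label are called Jun-cKO-labelled below because every direction rests on it. Lymphatic identity was clear in every library, with Lyve1 between 5971 and 10260 CPM and Prox1 between 31.9 and 43.6 CPM, although Ccl21a was listed at 0 in all 4. Among markers of other lung cells, the summed levels of the epithelial, immune, mesenchymal and platelet lists fell together with the changes below. Those of the mesothelial and blood endothelial lists rose. All 15 tested epithelial markers fell, and their summed level went from 1757 and 1863 CPM to 203 and 199 CPM. Of 11 tested immune markers 10 fell, with sums of 527 and 524 against 237 and 212 CPM, and Cd3e was at 0 throughout. Of 11 tested mesenchymal markers 8 fell, with sums of 337 and 340 against 108 and 115 CPM. Of 3 tested platelet markers 2 fell, with sums of 7.03 and 10.7 against 3.41 and 3.40 CPM, and Ppbp and Gp6 were at 0. Of 3 tested mesothelial markers 1 rose and 1 fell, with sums of 266 and 238 against 315 and 334 CPM. Of 8 tested blood endothelial markers 2 rose and 4 fell, with sums of 762 and 774 against 849 and 838 CPM. Of 8 markers of all endothelium 2 rose and 1 fell, with sums of 3281 and 3435 against 3819 and 3809 CPM. Of 9 tested lymphatic markers 4 rose and 1 fell, and the list summed to 14340 and 13212 CPM in Jun-Ctrl and to 18497 and 19063 CPM under the Jun-cKO label. In bulk RNA, fewer cells of a type and less RNA per cell cannot be told apart. The part of these other cells in the changes of the integrin and adaptor genes was not tested.

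Most changed members were lower under the Jun-cKO label. Of the 37 tested genes 17 fell, 5 rose and 15 had no call at an adjusted p under 0.05, against 41.5% of all 12656 tested genes called, 22.5% lower and 19% higher. The median log2 fold change was -0.15 over the tested members and 0.01 over all tested genes. Paxillin, talin 1, beta4 and alpha3 had the largest falls among tested members with a Jun-Ctrl mean above 10 CPM, from 3.20-fold to 3.80-fold. Of the 4 integrin subunits with the highest level per length in Jun-Ctrl, Itgb1 and Itga6 had no call, Itga9 fell 1.33-fold and Itgb4 fell 3.20-fold. Of the 37 genes, 31 reached the filter's level in both libraries of both groups, and of these 13 fell, 4 rose and 14 had no call. Itgb5, Itgb6, Lims2 and Parvg reached it in Jun-Ctrl only and Itgb7 under the Jun-cKO label only, so these 5 could be tested only because they were high in one group, and Itgax reached it in both libraries of neither. The groups did not overlap in CPM for 28 of the 37 genes, 19 lower and 9 higher, where 71.3% of all tested genes did not overlap, 35.9% lower and 35.4% higher.

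**Figure D1:**
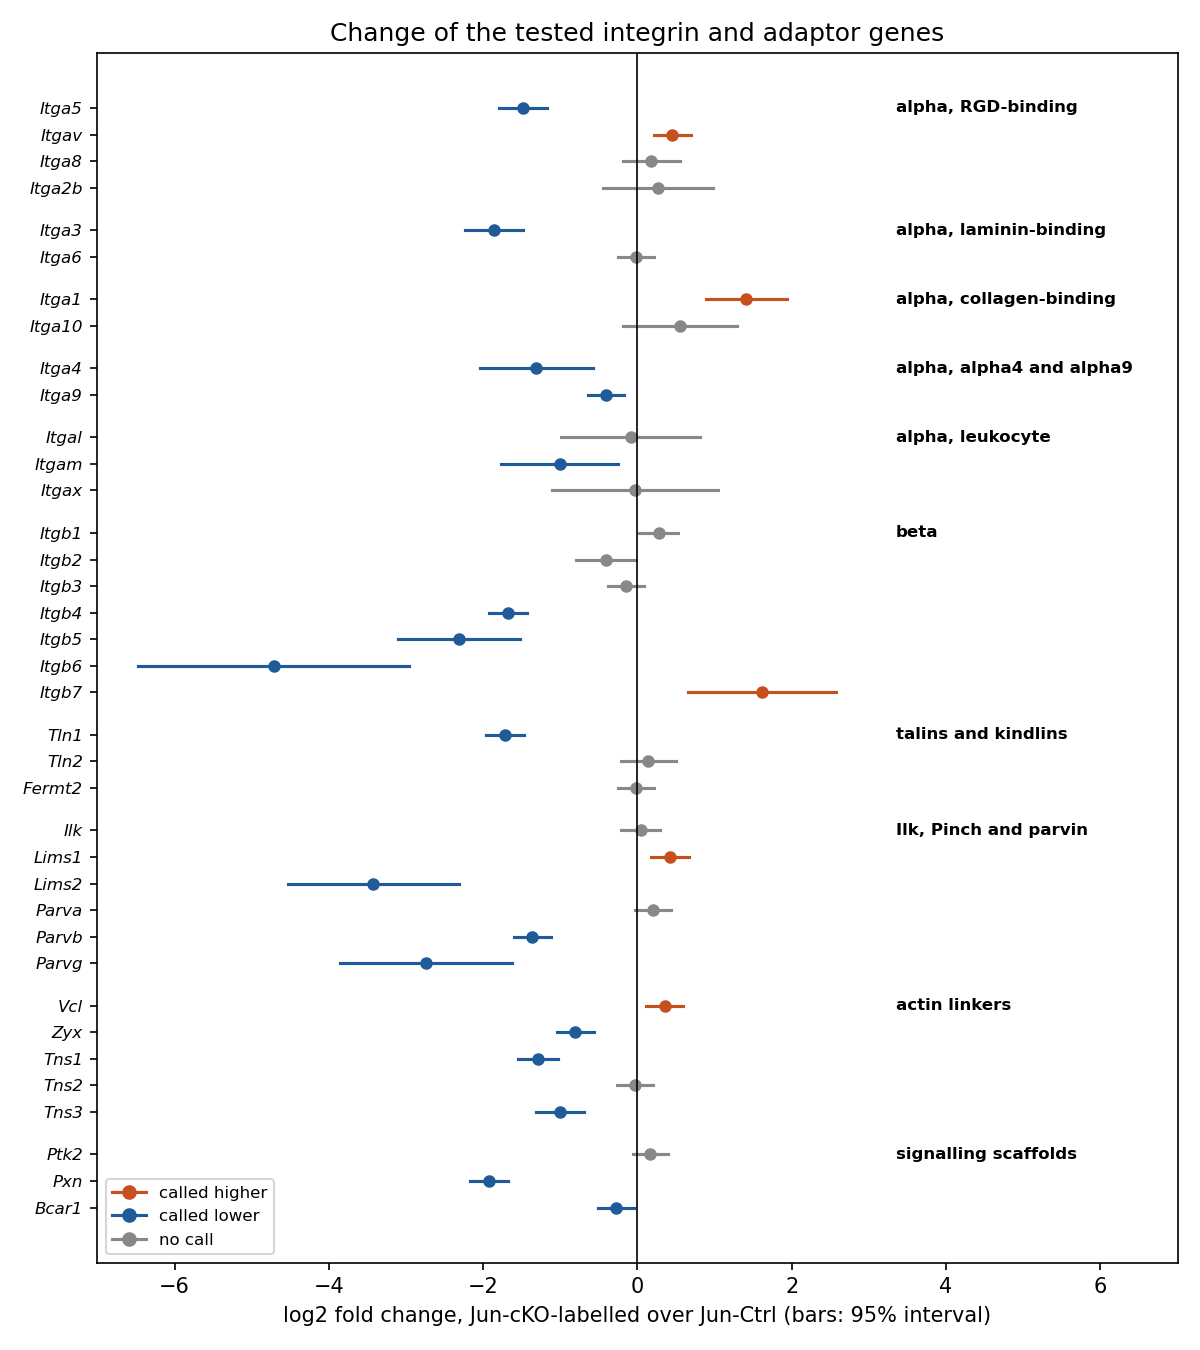
Each dot is the log2 fold change of 1 tested gene, Jun-cKO-labelled over Jun-Ctrl, with its 95% interval from the edgeR fit as a bar; genes are ordered by role, and colour marks the call. The 17 genes called lower stand left of 0 and the 5 called higher right of it; the position of Itgb6, with 1 count in the Jun-cKO-labelled group, depends on the prior count of the fit.

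Levels per length, in RPKM (CPM divided by the table's gene length in kilobases), set the order of the subunits. They assume reads spread evenly over a gene, which was not tested, and the RNA was amplified before sequencing. The beta1 gene Itgb1, common partner of most alpha chains, was the highest integrin at 230 and 201 RPKM in Jun-Ctrl and 277 and 245 RPKM under the Jun-cKO label. Next in Jun-Ctrl came the laminin receptor gene Itga6 at 44.5 and 42.8 RPKM, Itgb4 at 34.5 and 44.3 RPKM and Itga9 at 33.8 and 38.3 RPKM. Itga6 stood above Itga9 in both Jun-Ctrl libraries, while the range of Itgb4 overlapped those of both, so its place among them is not set. Itgb3 followed at 24.9 and 27.3 RPKM, then Itgav at 11.01 and 10.04 RPKM and Itga5 at 10.1 and 12.6 RPKM, a pair whose values overlap. All other subunits were under 7 RPKM in every library.

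The make-up of the subunits by level per length differed between the groups. Itgb1 made up 77.4% and 72.1% of all beta RPKM in Jun-Ctrl and 87.1% and 85.8% under the Jun-cKO label. The share of Itgb4 went from 11.6% and 15.9% to 3.98% and 4.13%. Among alpha chains, Itga6 and Itga9 led in every library, at 40.3% and 36.8% and at 30.6% and 33.0% in Jun-Ctrl, and at 45.2% and 43.6% and at 27.6% and 28.3% under the Jun-cKO label. Itgav took 9.98% and 8.64% of alpha RPKM in Jun-Ctrl and 14.8% and 15.0% in the other group, while Itga5 went from 9.16% and 10.9% to 4.01% and 4.31%. In each of these shares the groups did not overlap. An exact permutation test of 2 libraries against 2 cannot give a two-sided p below 0.333, so these shares stand as descriptions.

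**Figure D2:**
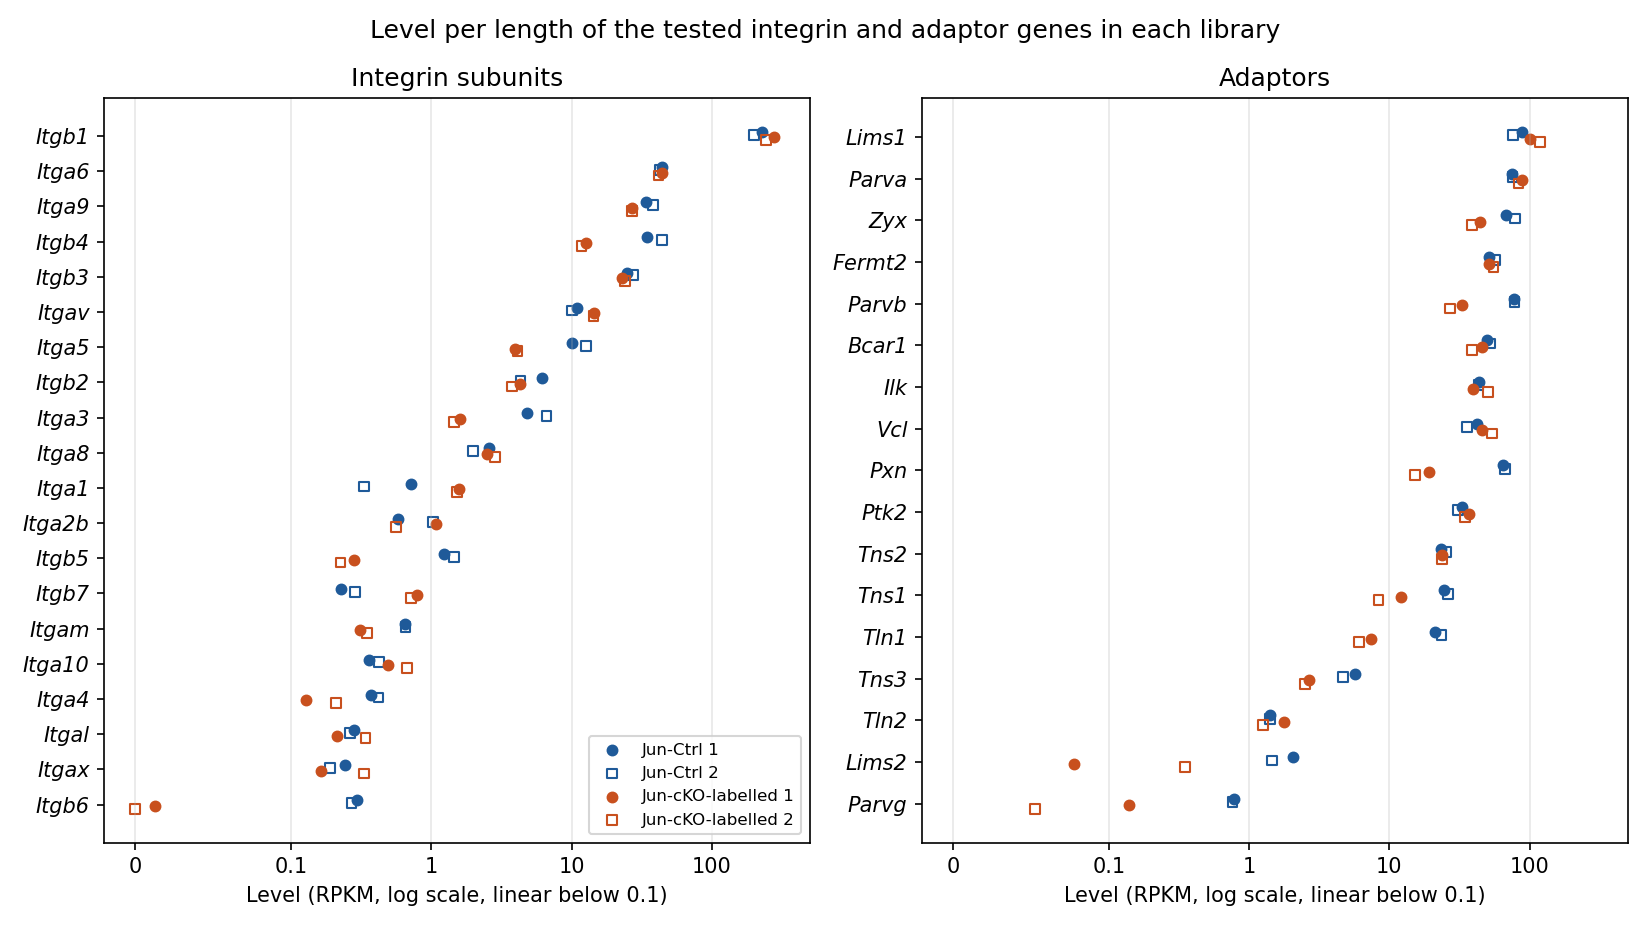
Each row is a tested gene, integrin subunits left and adaptors right, ordered by mean level; each point is 1 library, in RPKM on a log axis that is linear below 0.1. Itgb1 stands highest among the integrin subunits, from 201 to 277 RPKM, and Itgb4, Itga5, Pxn and Tln1 show the Jun-cKO-labelled points apart from and below the Jun-Ctrl points.

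Receptors for the RGD motif of fibronectin and related proteins went in different directions. Itga5, the alpha chain of the main fibronectin receptor (chromosome 15, 103344286 to 103366763, minus strand, GRCm38), had 44.2 and 55.1 CPM in Jun-Ctrl and 17.2 and 18.0 CPM under the Jun-cKO label. Both labelled libraries lay below both controls, and the fall was 2.80-fold (log2 fold change of -1.48 with SE 0.15, adjusted p = 5.35e-11 from the edgeR quasi-likelihood fit after Benjamini-Hochberg adjustment, used throughout). Itgav, which pairs with several beta chains to bind vitronectin and latent TGF-beta (chromosome 2, 83724397 to 83806916, plus strand), had 77.7 and 70.8 CPM against 103 and 101 CPM. It rose 1.37-fold (log2 fold change of 0.45 with SE 0.12, adjusted p = 0.00184), and the call ended without the second Jun-Ctrl library (adjusted p = 0.0731). Itgb3, 1 of its partners, stood at 144 and 158 CPM against 133 and 139 CPM (log2 fold change -0.15, 95% interval -0.38 to 0.08, adjusted p = 0.309).

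The other RGD partners were weak. Itgb5 had 4.06 and 4.74 CPM in Jun-Ctrl and 0.917 and 0.738 CPM under the Jun-cKO label, a 4.99-fold fall (adjusted p = 4.99e-06). Itgb5 and the next gene, Itgb6, reached the filter's level in Jun-Ctrl only, so they could be tested only because they were high there. Itgb6, a beta chain known mainly from epithelium, had 25 and 9 counts against 1 and 0, a ratio of 32.5 with an exact 95% counting interval from 5.46 to 1322 (adjusted p = 2.33e-05). The epithelial marker Epcam, named after its values were seen, stood at 2.91 and 2.45 against 0.131 and 0 CPM. The part of epithelial RNA in the fall of Itgb6 was not tested. Itgb8 had 1 and 0 counts against 5 and 2 and was not tested. Itga8, a receptor chain of mesenchymal cells, stood at 14.9 and 11.5 against 14.5 and 16.4 CPM and had no call (adjusted p = 0.457). The platelet chain Itga2b ranged from 1.92 to 3.74 CPM with the groups overlapping (adjusted p = 0.575).

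Chains of laminin receptors also differed from each other. Itga6, the most abundant alpha chain, had 268 and 258 CPM in Jun-Ctrl and 268 and 251 CPM under the Jun-cKO label. The groups overlapped, and the 95% interval of its fold ran from 0.843 to 1.16 (adjusted p = 0.924). Its beta4 partner gene Itgb4, whose protein binds laminin and anchors hemidesmosomes in epithelia (chromosome 11, 115974709 to 116008412, plus strand), had 213 and 273 against 78.2 and 72.8 CPM. Itgb4 fell 3.20-fold (log2 fold change of -1.68 with SE 0.12, adjusted p = 1.44e-15). Itga3, another laminin receptor chain (chromosome 11, 95044474 to 95076801, minus strand), had 25.4 and 34.9 against 8.39 and 7.68 CPM and fell 3.64-fold (log2 fold change of -1.87 with SE 0.19, adjusted p = 2.21e-11). Itga3 and Itgb4 moved in the same direction as the epithelial marker list, whose median log2 fold change was -3.26 and whose summed level went from 1757 and 1863 to 203 and 199 CPM, and the part of epithelial RNA in their fall was not tested. Itga7 had 9 and 6 counts against 3 and 2 and was not tested.

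Chains of collagen receptors were weak, and 1 of them rose. Itga1, which with beta1 binds basement membrane collagen (chromosome 13, 114953096 to 115101964, minus strand), had 4.31 and 1.99 CPM in Jun-Ctrl and 9.44 and 9.15 CPM under the Jun-cKO label. Both labelled libraries lay above both controls, and the rise was 2.66-fold (log2 fold change of 1.41 with SE 0.26, adjusted p = 2.38e-05). The gene Pelo lies inside Itga1 on the same strand, so reads of the 2 genes may not be fully told apart. Its neighbour Itga2, which lies 20995 bases away on the same strand and encodes another collagen receptor chain, had 6 and 4 counts against 0 and 0. Itga2 was not tested. Itga10 had 1.82 and 2.14 against 2.49 and 3.40 CPM with no call (adjusted p = 0.233), and Itga11 had from 3 to 10 counts and was not tested.

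The alpha4 and alpha9 chains, a pair of close relatives that bind fibronectin and the cell-bound ligand Vcam1, both fell. Itga9, known for lymphatic valve formation (chromosome 9, 118606690 to 118901003, plus strand), had 239 and 272 CPM in Jun-Ctrl and 192 and 192 CPM under the Jun-cKO label. It fell 1.33-fold (log2 fold change of -0.41 with SE 0.12, adjusted p = 0.0037), and the call ended without the second Jun-Ctrl library (adjusted p = 0.0922). Itga4 was far weaker, at 3.64 and 4.13 against 1.25 and 2.07 CPM. It fell 2.48-fold (adjusted p = 0.00317), and DESeq2 did not call it (adjusted p = 0.0628); the call also ended without the first Jun-Ctrl library (0.0562) and without the first Jun-cKO-labelled library (0.134).

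Integrins of leukocytes, cells that the sort was meant to remove through CD45, were weak. Itgb2, the common beta chain of leukocytes, was the highest at 17.6 and 12.4 CPM against 12.2 and 10.8 CPM and had no call (log2 fold change of -0.41 with SE 0.19, adjusted p = 0.0817). It passed without the second Jun-Ctrl library (adjusted p = 0.0331) and with library totals as the scale (0.0475). The myeloid chain Itgam had 3.03 and 3.06 against 1.44 and 1.62 CPM and fell 2.01-fold (adjusted p = 0.027). That call ended in DESeq2 (adjusted p = 0.188), without either Jun-Ctrl library (0.174 and 0.0969) and without the first Jun-cKO-labelled library (0.182). Itgal ranged from 1.11 to 1.77 CPM and Itgax from 0.655 to 1.33 CPM, with groups that overlapped and no call (adjusted p = 0.896 and 0.967). Itgad and Itgae had at most 1 count in any library. Itgb7, a lymphocyte beta chain, went the other way, with 10 and 5 counts against 32 and 13. It reached the filter's level under the Jun-cKO label only, so it could be tested only because it was high there. It rose 3.06-fold (adjusted p = 0.00564), and the call ended in DESeq2 (adjusted p = 0.108), without the first Jun-Ctrl library (0.175) and without the first Jun-cKO-labelled library (0.0926). Beside these values stands the immune marker list, in which 10 of 11 tested genes fell and 0 rose.

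The common beta chain was close to the threshold. Itgb1 (chromosome 8, 128685654 to 128733200, plus strand) had 965 and 843 CPM in Jun-Ctrl and 1164 and 1027 CPM under the Jun-cKO label, with no overlap. Its log2 fold change of 0.28 (95% interval 0.02 to 0.53) did not pass (adjusted p = 0.0743). It passed with the mark replicate as a block (adjusted p = 0.0411) and in limma-voom (0.0432). The other fits on all libraries did not call it, among them DESeq2 (0.0762), upper-quartile scaling (0.131) and library totals (0.168). With an offset for GC content its log2 fold change was 0.15 (adjusted p = 0.336). Leaving out 1 library gave log2 fold changes from 0.16 to 0.37.

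Talin and kindlin, which both act on the beta tail, differed from each other. Tln1, the main talin of non-muscle cells (chromosome 4, 43531519 to 43562691, minus strand), had 182 and 202 CPM in Jun-Ctrl and 63.3 and 52.1 CPM under the Jun-cKO label. Both labelled libraries lay far below the controls, and Tln1 fell 3.29-fold (log2 fold change of -1.72 with SE 0.12, adjusted p = 4.42e-16). Creb3 overlaps Tln1 on the opposite strand, and without strand information their reads cannot be told apart where they overlap. Its relative Tln2 had 17.0 and 17.1 against 21.4 and 15.2 CPM with no call (adjusted p = 0.556). Fermt2, the kindlin of most tissues, stood at 167 and 184 against 168 and 180 CPM, and the 95% interval of its fold ran from 0.842 to 1.16 (adjusted p = 0.922). Fermt1, the epithelial kindlin, and Fermt3, the blood cell kindlin, had at most 11 counts in a library and were not tested.

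In the complex of Ilk, Pinch and parvin, Lims1 rose, Lims2, Parvb and Parvg fell, and Ilk and Parva had no call. Ilk, the scaffold of the complex, had 82.1 and 81.4 CPM in Jun-Ctrl and 74.8 and 94.8 CPM under the Jun-cKO label (adjusted p = 0.819). The second labelled library was the highest and the first the lowest, so the groups overlapped, and Rrp8 and Taf10 overlap Ilk on the opposite strand. Lims1 had 436 and 377 against 496 and 590 CPM and rose 1.33-fold (log2 fold change of 0.42 with SE 0.12, adjusted p = 0.00537). That call ended without the second Jun-Ctrl library (adjusted p = 0.189), without the second Jun-cKO-labelled library (0.0664) and with an offset for GC content (0.131). Lims2 had 57 and 16 counts against 2 and 4, or 3.46 and 2.45 against 0.131 and 0.591 CPM, and fell 10.7-fold (adjusted p = 1.97e-06). It reached the filter's level in Jun-Ctrl only, so it could be tested only because it was high there. Its labelled counts lie near the floor of 3 counts, so the size of the fall is uncertain.

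The parvins, which link Ilk to actin, had different calls. Parva had 333 and 337 CPM in Jun-Ctrl and 395 and 371 CPM under the Jun-cKO label, with no call (log2 fold change 0.19, 95% interval -0.04 to 0.43, adjusted p = 0.177). Parvb (chromosome 15, 84232043 to 84315688, plus strand) had 286 and 289 against 122 and 101 CPM and fell 2.57-fold (log2 fold change of -1.36 with SE 0.12, adjusted p = 2.84e-13). Parvg, the blood cell parvin, starts 8337 bases beyond Parvb on the same strand. It had 2.18 and 2.14 against 0.393 and 0.148 CPM, a 6.69-fold fall (adjusted p = 8.66e-05). Parvg reached the filter's level in Jun-Ctrl only, so it could be tested only because it was high there. Parva and Parvb each held close to equal parts of parvin RPKM in Jun-Ctrl, at 49.0% and 49.0% for Parva and 50.5% and 50.5% for Parvb. In the Jun-cKO-labelled libraries Parva held 72.9% and 75.4% and Parvb 27.0% and 24.5%. The difference between the changes of relatives was not tested.

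**Figure D3:**
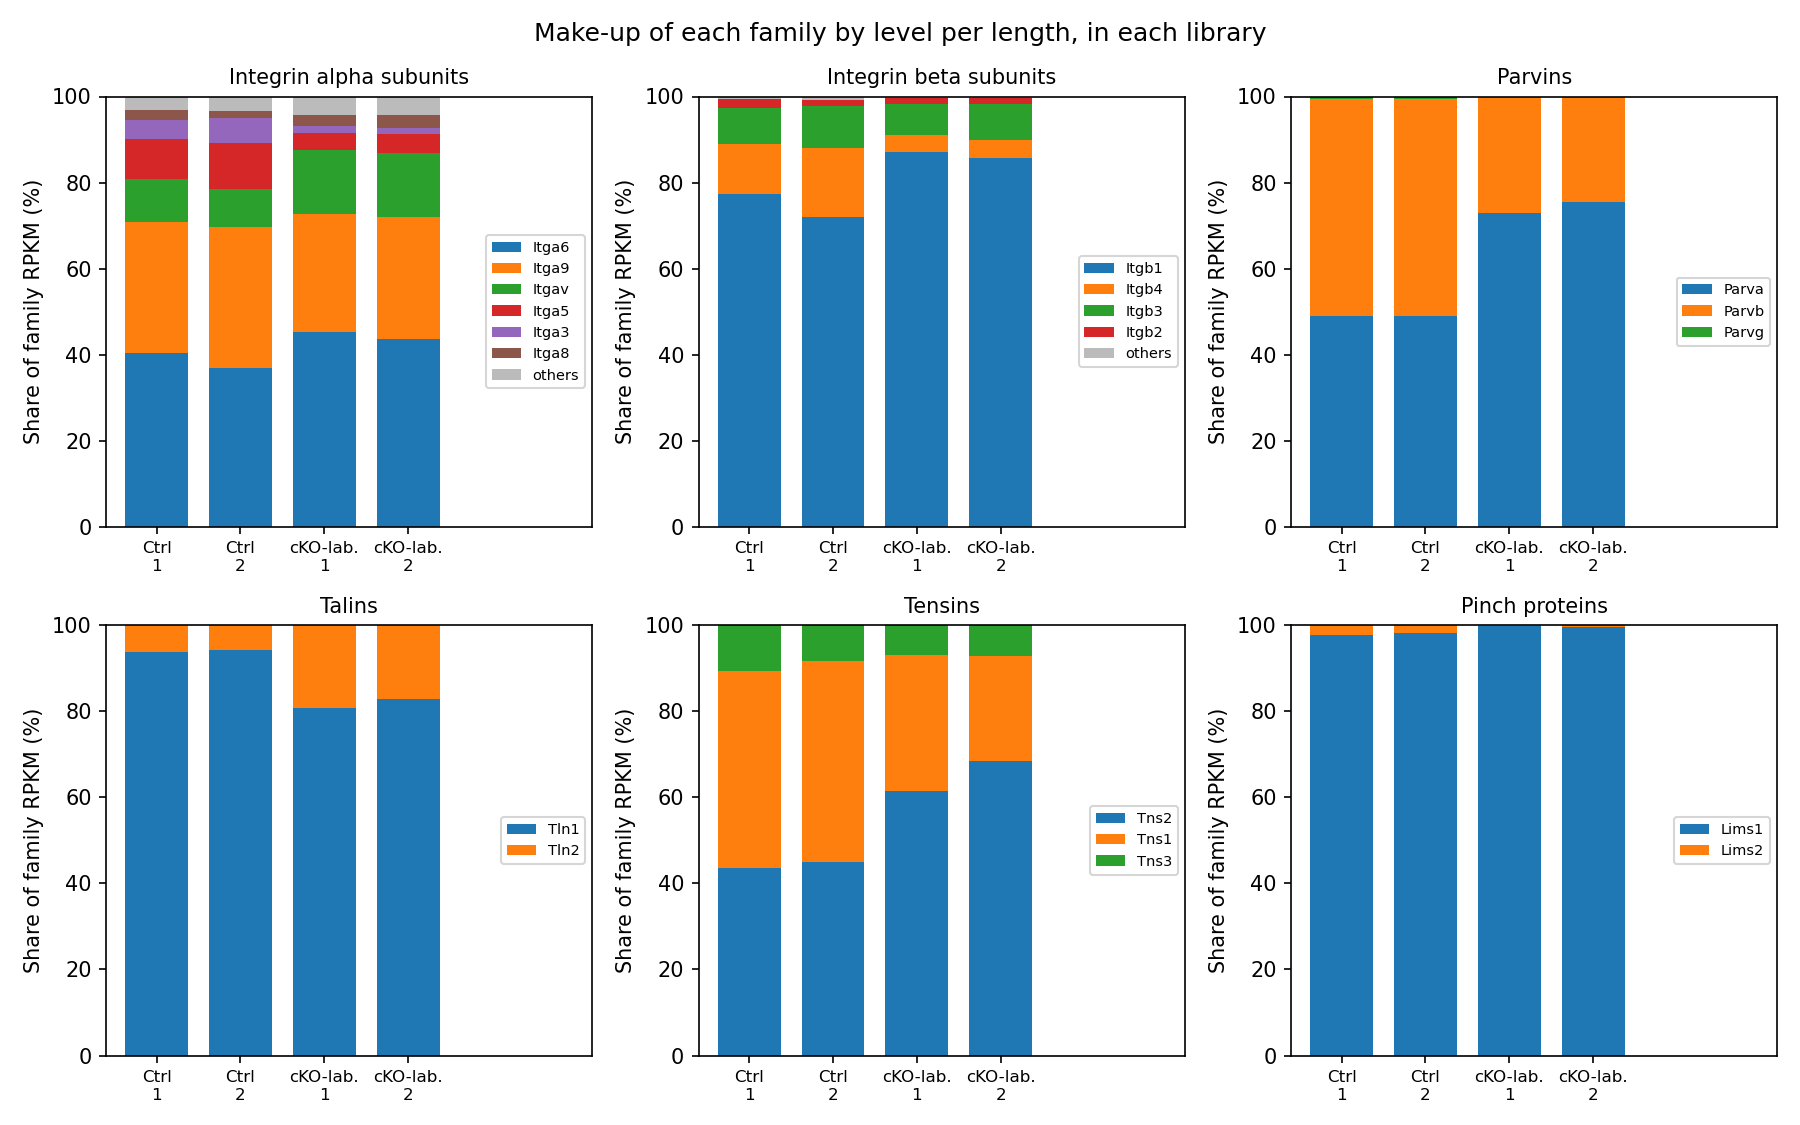
Stacked bars give the share of each gene in the summed RPKM of its family, in percent, for the 4 libraries (cKO-lab. is Jun-cKO-labelled). The parvins go from near equal shares of Parva and Parvb to 72.9% and 75.4% Parva. The Itgb4 share of beta subunits falls from 11.6% and 15.9% to 3.98% and 4.13%. Tns1 and Tns2 have close shares in Jun-Ctrl, and Tns2 has the largest tensin share under the Jun-cKO label, where Tns1 and Tns3 fell.

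Among the linkers to actin, vinculin and zyxin went in opposite directions. Vcl, which binds talin and reinforces stretched adhesions (chromosome 14, 20929398 to 21033676, plus strand), had 219 and 186 CPM in Jun-Ctrl and 239 and 281 CPM under the Jun-cKO label. It rose 1.28-fold (log2 fold change of 0.35 with SE 0.12, adjusted p = 0.015), and the call ended without the second Jun-Ctrl library (adjusted p = 0.316) and without the second Jun-cKO-labelled library (0.134). Zyx, a LIM protein of mature adhesions and stress fibres (chromosome 6, 42349630 to 42360213, plus strand), had 269 and 313 against 177 and 155 CPM. It fell 1.75-fold (log2 fold change of -0.81 with SE 0.12, adjusted p = 3.34e-07), and Epha1 overlaps it on the opposite strand.

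The tensins, which hold beta tails to actin in mature adhesions, did not move alike. Tns1 (chromosome 1, 73910231 to 74124449, minus strand) had 246 and 262 CPM in Jun-Ctrl and 122 and 83.6 CPM under the Jun-cKO label. It fell 2.45-fold (log2 fold change of -1.29 with SE 0.13, adjusted p = 1.46e-11). Tns3 had 42.4 and 35.0 against 19.99 and 18.7 CPM and fell 2.01-fold (adjusted p = 8.08e-07). Tns2 had 110 and 119 against 112 and 112 CPM, with overlap and no call as counted (adjusted p = 0.843), and it passed as higher after the GC offset (log2 fold change 0.41, adjusted p = 0.00263). Tns2 made up 43.6% and 45.0% of tensin RPKM in Jun-Ctrl and 61.5% and 68.5% under the Jun-cKO label.

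The signalling members differed in size and call. Pxn, the docking protein that recruits kinases to young adhesions (chromosome 5, 115506676 to 115555987, plus strand), had 246 and 255 CPM in Jun-Ctrl and 72.6 and 57.9 CPM under the Jun-cKO label. It fell 3.80-fold (log2 fold change of -1.93 with SE 0.12, adjusted p = 7.12e-18), the smallest p among the tested members. Ptk2, the focal adhesion kinase that binds paxillin, had 164 and 155 against 185 and 173 CPM and no call (log2 fold change 0.17, 95% interval -0.06 to 0.40, adjusted p = 0.243). Bcar1, a substrate of that kinase, had 164 and 173 against 149 and 127 CPM and was at the edge of the threshold (log2 fold change -0.28, adjusted p = 0.0493). Its call ended in DESeq2 (adjusted p = 0.0967), with no filter (0.0701), without either Jun-Ctrl library (0.127 and 0.204) and without the second Jun-cKO-labelled library (0.342), and its sign turned with the GC offset (log2 fold change 0.19, adjusted p = 0.138).

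Base composition differed between the calls at the median, with ranges that overlapped. The longest transcripts of the 17 genes called lower had a median GC content of 56.6% (lowest 41.1%, in Itga4), against 43.5% for the 5 called higher (highest 58.0%, in Itgb7), 51.7% for the 15 without a call and 49.7% for all tested genes with a matched transcript. GC content and log2 fold change were inversely ranked among all tested genes (rho = -0.338, Spearman, 12188 genes from the same 4 libraries). With an offset that removes each library's GC trend, 5 members were higher and 16 lower, against 39.1% of all tested genes called in that fit, 19.3% higher and 19.9% lower. Pxn then had a log2 fold change of -1.54, Tln1 of -1.37, Itgb4 of -1.20 and Parvb of -1.09, and all 4 kept their call. The falls of these GC-rich genes were thus smaller after the offset, as the plot of fold changes with and without it shows. The groups did not overlap in CPM for any of the 22 called genes. Ratios within the first libraries and within the second therefore had to share their sign, and they add no support. Itgb6 had no second ratio because of its 0.

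**Figure D4:**
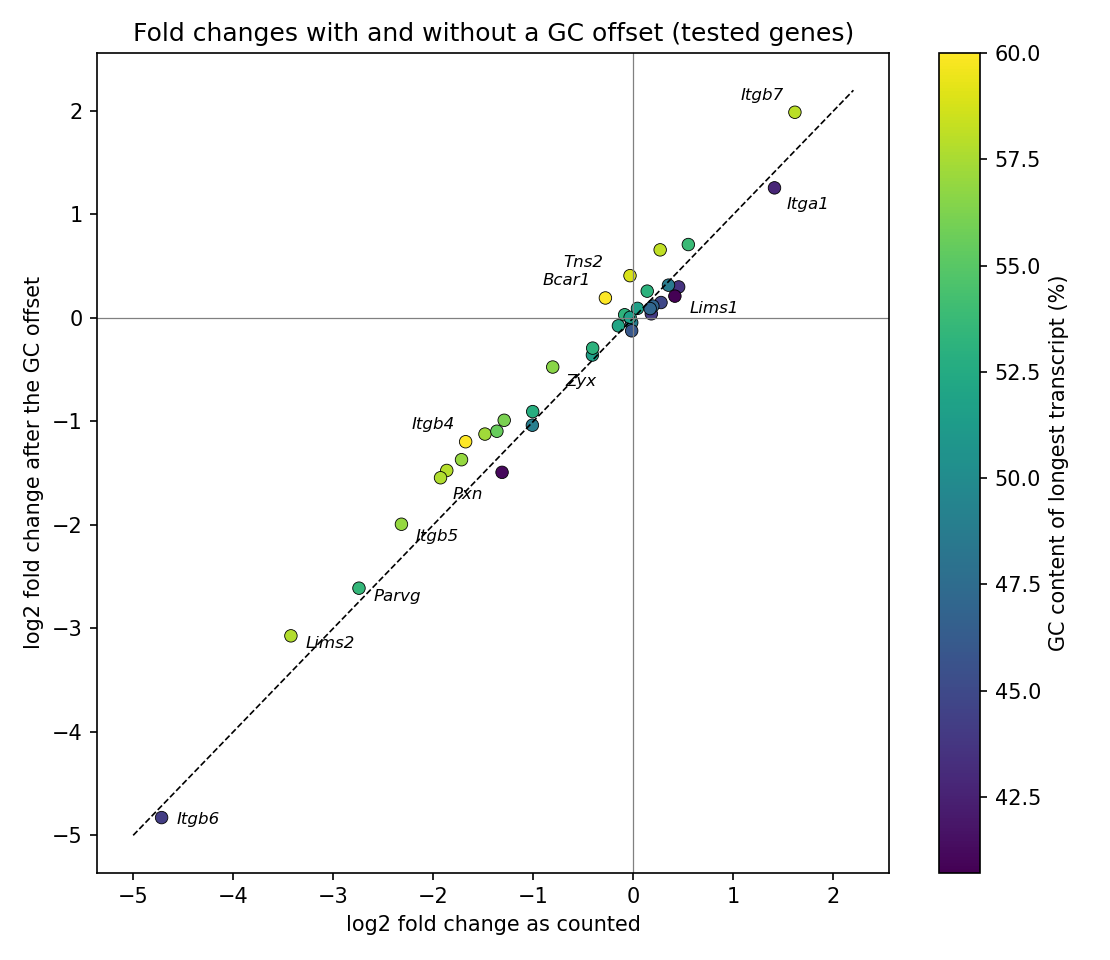
Each point is a tested gene, with its log2 fold change as counted on the x axis and after the GC offset on the y axis; colour gives the GC content of its longest transcript, and the dashed line marks equal values. GC-rich genes lie above the line, Bcar1 and Tns2 cross 0, and the large falls stay below 0.

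Because Jun acts in the AP-1 factor, promoters were searched for its known motif, TGANTCA, which reads the same way on both strands. RefSeq windows (250 bases before to 50 after a start site, GRCm38.p6) were at hand for 32 of the 45 genes. Of these genes 4 held the motif, or 12.5%, against 8.97% of 27025 genes. By window it was 4 of 39, or 10.3%, against 7.81% of 32851. For the 3 of them called lower, Zyx, Itga3 and Itga9, 30 bases around the motif are shown 5′ to 3′ with the motif in capitals. In Zyx (chr6:42349696-42349725, plus strand) the motif begins 121 bases before the RefSeq start site, yet 77 bases after the outermost start of the gene in the GENCODE annotation. In Itga3 (chr11:95069168-95069197, minus strand) it begins 12 bases after a start site inside the gene and 7615 bases after the outermost start, and the Itga3 window at the outer start did not hold it. In Itga9 (chr9:118711712-118711741, plus strand) it begins 38 bases after a start site inside the gene and 105040 bases after the outermost start.
Zyx: agtgcggacagTGAGTCAgttctccagcac
Itga3: gggctggtgccTGAATCActggcttgctca
Itga9: ttgatttgcagactggtcTGACTCAaggag
The windows of Itga4, Itga5, Itgam, Itgb5, Itgb6, Parvb, Parvg, Tln1, Tns1 and Tns3, which fell more than Zyx, did not hold these letters. Pxn, Itgb4 and Lims2 also fell more than Zyx, and no window was at hand for them. Whether the motif goes with the changes was not tested. The remaining gene with the motif, the leukocyte chain Itgax, had no call. A match is a run of letters and does not show binding.

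Other genes of adhesion sites, from a list of 63 that holds none of the 45, gave 9 higher and 21 lower of 59 tested, where 19% of all tested genes were higher and 22.5% lower. Their median log2 fold change was -0.13, and after the GC offset 7 were higher and 16 lower. The falls with the smallest p were in Pip5k1c, which makes the lipid that recruits talin, 2.77-fold from 167 ± 5.14 to 59.9 ± 4.09 CPM (adjusted p = 2.8e-14), and in the actin crosslinker Actn4, 2.71-fold (adjusted p = 4.29e-14). Plaur, the urokinase receptor, fell 1.78-fold, and Flna, which crosslinks actin, fell 1.81-fold. In the other direction Kank1, which binds talin at the rim of adhesions, rose 2.09-fold from 17.8 ± 3.78 to 37.9 ± 3.73 CPM (adjusted p = 5.62e-07). The kinase genes Slk and Lyn rose 1.42-fold and 1.39-fold, the caveolin Cav2 1.36-fold and the Ras inhibitor Rasa1 1.30-fold. Of 16 tested genes of actin linkage 9 fell and 1 rose, and of 21 tested signalling genes 3 fell and 4 rose. After the GC offset 5 genes of actin linkage were lower and 2 higher, and 5 signalling genes were lower and 3 higher. The medians of the 2 groups were then both -0.07. Without the second Jun-Ctrl library 3 genes of the whole list were called higher.

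Ligands of integrins fell more often than they rose, 21 against 2 of 36 tested from a list of 39, where 22.5% of all tested genes were lower and 19% higher. Their median log2 fold change was -0.61. With a minimum of 50 counts in 2 libraries, where fewer genes were tested, 16 ligands were lower and 2 higher. Ligands that reached the filter's level in 1 group only were not counted apart. Fn1, the fibronectin bound by alpha5, alphav, alpha4 and alpha9, stood at 2769 and 2219 CPM in Jun-Ctrl and at 2557 and 2130 CPM under the Jun-cKO label, with groups that overlapped. The rises were in the matricellular protein Postn, 2.18-fold from 164 ± 26.4 to 359 ± 44.3 CPM (adjusted p = 2.77e-10), and in the basement membrane protein Nid1, 1.61-fold (adjusted p = 3.04e-05). The falls with the smallest p were in the collagens Col1a1, Col1a2 and Col6a1, at 6.82-fold, 3.25-fold and 7.21-fold, in Tgfb1, 4.49-fold, and in the laminin chain Lamb3. Lamb3 had 161 counts over the Jun-Ctrl libraries and 1 over the other group. The ratio was 154, with an exact 95% counting interval from 27.3 to 6123. Lamb3 could be tested only because it was high in Jun-Ctrl. Col1a1, Col1a2 and Col3a1 are also on the mesenchymal marker list, and Lamb3 is known from epithelium. The count of ligands called higher was 4 with the mark replicate as a block. After the GC offset 16 of 34 ligands were lower and 5 higher. Of all tested genes in that fit 19.9% were lower and 19.3% higher. The median log2 fold change of the ligands was then -0.32.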

How the data were processed

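RNA of sorted lung lymphatic endothelial cells was measured in 4 libraries, 2 per group. The authors deposited 1 table of raw counts per gene with a gene length column. Per the submitters' processing notes, the build was mm10 and the tools included edgeR 3.28.1, featureCounts 1.6.4 and STAR 2.7.2a. The annotation, the strand setting and how Cre was induced were not given in the sources used here. If strand was not used, overlapping genes share reads that cannot be told apart. Besides the overlaps named above, Ap3m1 overlaps Vcl, Cerkl overlaps Itga4 and Gpr17 overlaps Lims2, each on the opposite strand. On the same strand, Gm49368 overlaps Itgam and Gm49395 overlaps Itga1.

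The groups were compared on the deposited counts with edgeR 4.0.16 (R 4.3.3), with TMM scaling, its default filter on low counts and the quasi-likelihood test, and p-values were adjusted over all 12656 tested genes by the Benjamini-Hochberg method. A gene was called at an adjusted p under 0.05. Fold changes are Jun-cKO-labelled over Jun-Ctrl. CPM and RPKM were computed from the counts, TMM scaling and the length column. Intervals on counts and the floor of 3 counts cover counting error only. Alternatives were other scalings, DESeq2 1.42.0, limma-voom (limma 3.58.1), other filters and thresholds, each library left out, the mark replicate as a block, and an offset from a loess curve of GC content (12188 genes matched). The script was checked on simulated data.

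Genes of the set are all accounted for. Of the list of other adhesion genes and that of ligands, at most 5 called genes per direction with the smallest p are named, other than 1 that is not reported here, and Fn1, Col3a1 and Epcam were named after their values were seen. Members and lists were chosen with earlier results of these data known. Gene positions are from GENCODE and promoters from RefSeq, both on GRCm38.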

Additional observations from a re-analysis of the deposited data

How the results depend on the processing

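Counts of called genes moved with some choices. Genes of the set called higher went from 5 to 2 at a log2 fold change of at least 1 and to 2 to 4 with 1 library left out, the 2 being without the second Jun-Ctrl library. Those called lower went from 17 to 11 with a minimum of 50 counts in 2 libraries, where fewer genes were tested, and to 13 to 16 with 1 library left out. Other adhesion genes called higher went from 9 to 1 and those lower from 21 to 5 at a log2 fold change of at least 1, and with 1 library left out they were 3 to 9 and 15 to 21. Ligands called higher went from 2 to 4 with the mark replicate as a block, to 5 with the GC offset, to 1 at a log2 fold change of at least 1 and to 2 to 5 with 1 library left out. Ligands called lower went from 21 to 12 at that fold and to 18 to 20 with 1 library left out. Beyond the smaller number tested, the cause was not tested.

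With the block, 6 genes of the set were higher and 17 lower. The libraries share only the word replicate in their titles, so the block is not taken as a pairing of animals. The deviations of same-marked libraries correlated at 0.073, a value that cannot show whether the libraries were paired.

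Genes whose sign turned had no call, other than Bcar1. The log2 fold change of Bcar1 became 0.19 and that of Tns2 0.41 with the GC offset. With the GC offset Itgal became 0.0305 and Itgax 0.0054, and Itgax was 0.11 in DESeq2. With library totals Ilk was -0.0149. Leaving out 1 library gave a range from -0.40 to 0.58 for Itga2b, from -0.0651 to 0.0363 for Itga6, from -0.35 to 0.31 for Itgal, from -0.17 to 0.34 for Tln2, from -0.0988 to 0.0320 for Fermt2 and from -0.12 to 0.21 for Ilk. Of the 22 called genes 14 kept their call at an adjusted p under 0.05 in every alternative fit that tested them. Among these, Itga1 was the only gene called higher. Itgb5, Itgb6, Lims2 and Parvg are also among these, and they reached the filter's level in Jun-Ctrl only. Their tests came from being high in that group, so their kept calls give no support. These genes were not tested with the minimum of 50 counts, and Itgb6 was not tested without the first Jun-Ctrl library. With 2 libraries a group, depth limits genes near the floor of 3 counts, which is from 0.182 to 0.459 CPM.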
